A study of Mus musculus with 18 samples.

Results

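Gonadal adipose tissue, the fat pad beside the gonads, was sequenced together with hypothalamus and liver of weanling mice. The adipose data are the 6 columns of expression values whose headings name that tissue, out of 18 columns in all, and they are set here against the 6 columns of hypothalamus and the 6 columns of liver. All 18 samples came from male C57BL/6 offspring aged 3 weeks. In every tissue 3 samples came from offspring of dams gavaged with corn oil and 3 from offspring of dams gavaged with bisphenol A (BPA) in corn oil at 5 mg/kg/day from 1 to 20 days after conception. The vehicle offspring came from 3 litters and the BPA offspring from 4, and the labels tie no sample to a litter. The column headings give a tissue and a number that occurs in no label. The numbers 03, 15, 25 and 42 recur in all 3 tissues, and what they mark is not given. Thus the treatment of a column is not known and the spread within a tissue holds both treatments.

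White fat stores triglyceride in adipocytes, cells filled by a single large lipid droplet that perilipins and CIDE proteins coat. Lipoprotein lipase and CD36 bring fatty acids in, acyltransferases build triglyceride, and beta-adrenergic signals release it through a chain of lipases. Adipocytes also secrete hormones and a complement protease, and they sit in a collagen-rich, densely vascularised stroma that holds their progenitors, macrophages and an outer mesothelium. In male mice the gonadal pad is attached to the epididymis, the duct in which sperm mature.

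Values are in FPKM, fragments per kilobase of transcript, scaled to the mapped fragments of the library, summed over the transcript models that carry one gene name. Each library sets its own scale and each tissue's table rests on its own transcript assembly, so p-values measure the spread between libraries and not a difference between assemblies. In bulk tissue fewer cells of a type and less RNA per cell cannot be told apart. The FPKM sum of a column was 169666 to 217234 in adipose, 238309 to 256127 in hypothalamus and 288191 to 329290 in liver, and the files hold no read counts, so the depth is unknown. A value of 0 may be a failed estimate: Eef1a1, a translation factor used by all cells, was listed at 0 in 17 of 18 columns and at 707 FPKM in the remaining one, an adipose column, and Gapdh was listed at 0 in all 6 adipose columns. Genes are therefore described as listed at 0, and no difference is printed against a tissue whose 6 columns are all at 0.

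Genes of adipocytes, connective tissue and vessels were higher in adipose than in the other tissues, and so was a set of RNAs without poly-A tails. Among the genes lowest in adipose relative to the others were enzymes of amino acid metabolism. Of 23879 gene names found in all 3 tissue tables, 12746 reached 1 FPKM in at least 6 of the 18 columns and were tested with limma on log2(FPKM + 1). A gene was called at an adjusted p under 0.05 and a difference of at least 1 on that scale. Against hypothalamus 1671 genes were higher in adipose (13.1% of those tested) and 4878 were lower (38.3%). Against liver 2911 were higher (22.8%) and 1629 were lower (12.8%). Higher than in both tissues were 968 genes (7.59%), and lower than in both were 461 genes (3.62%). Of the 968, 101 were listed at 0 in all columns of both other tissues, where a 0 may be a failed estimate. All 6 adipose columns lay above all 12 others for 860 of the 968, and below all 12 others for 382 of the 461. Among all 12746 tested genes, called or not, the adipose columns lay above all 12 others for 1196 and below them for 883.

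The balance of these counts depended on the scale. The median difference over all tested genes was -0.62 against hypothalamus and 0.20 against liver. When columns were scaled to a common upper quartile the first median moved to 0.01, and the hypothalamus split became 2825 higher and 2939 lower, so that 49.0% of calls were higher in adipose in place of 25.5%. Scaling to equal FPKM sums moved the median against liver to 0.86 and gave 6540 genes higher and 1328 lower there, or 83.1% of calls higher in place of 64.1%. This scaling also raised the values of every column, so that 14559 genes passed the filter and the added 1 weighed less. The shift therefore mixes these settings with the column scale. An added constant of 0.1 in place of 1, without scaling, moved the median against liver to 0.32 and gave 4117 genes higher there. Of the 959 tested genes that passed the expression filter only with the adipose columns, 501 were among the 968. Passing in that way favours a call of higher. The other 467 of the 968 passed on hypothalamus and liver columns alone. Where a gene had to have the same number of transcript models in all 3 tables, 3880 genes were left to test, and 304 were higher and 152 lower than in both tissues.

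**Figure D1:**
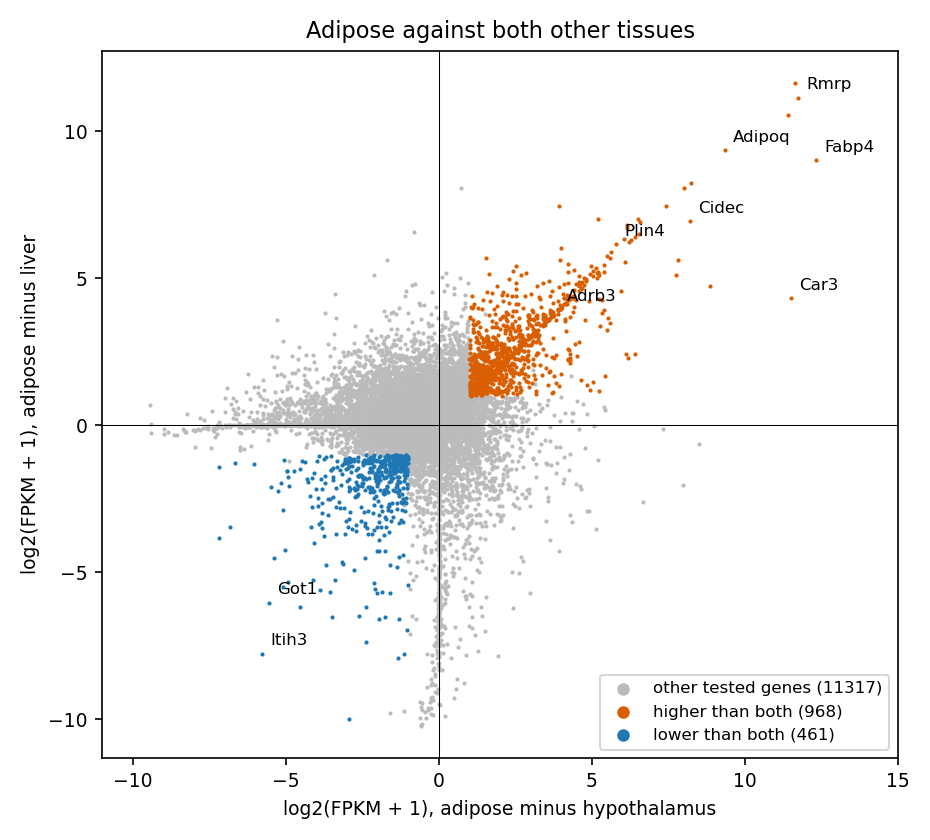
Difference in log2(FPKM + 1) between adipose and hypothalamus (horizontal) and between adipose and liver (vertical) for the 12746 tested genes; each point is a gene. The 968 genes called higher than in both tissues lie at the upper right and the 461 called lower at the lower left, and the dense arm that runs straight down near 0 holds genes high in liver alone.

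The 5 adipocyte markers were high in all 6 adipose columns, in accord with the label, and 4 of them passed the filter only with these columns. Adipoq encodes adiponectin, an insulin-sensitising hormone, and was listed at 494, 573, 870.2, 462, 885 and 767 FPKM in adipose columns 03, 10, 15, 25, 41 and 42. It was listed at 0 in all 12 other columns. Car3, a cytosolic carbonic anhydrase, reached 1790.1 to 4915 FPKM (median 3294) in adipose against 108 to 261 FPKM (median 161) in liver, and its hypothalamic columns did not exceed 0.464 FPKM. The groups did not overlap, and the difference against liver was 4.32 ± 0.23 (SE, n = 6 columns per tissue) on the log2 scale, with a limma adjusted p of 9.9e-12.

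Cidec, a droplet protein that promotes fusion into large droplets, ran from 198 to 511 FPKM (median 252) in adipose. It was listed at 0 throughout the hypothalamus and reached at most 3.20 FPKM in liver. Plin4, a droplet coat protein, varied more within adipose, at 90.0, 158, 165, 30.3, 65.8 and 118 FPKM in the same column order. Even its lowest adipose value, in column 25, lay above the highest of the other tissues, 2.50 FPKM. Adrb3, the adrenergic receptor that starts lipolysis in rodent fat, was at 11.3, 17.9, 39.5, 14.9, 6.36 and 45.9 FPKM and at most 0.677 elsewhere. Its adipose values varied widely, and none overlapped the other tissues. Adrb3, Adipoq, Cidec and Plin4 entered the test only through the adipose columns, so their levels are given without a test.

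Among the 25 genes with the largest difference from both tissues, 3 are markers given above and 8 more are well-known adipocyte genes. Of the 25, 18 passed the filter only with the adipose columns. Fabp4, the fatty acid binding protein of adipocytes, had the highest level of these at 2871 to 7747 FPKM (median 5541), against 6.84 to 11.8 FPKM (median 8.89) in liver. Cfd encodes adipsin, the factor D protease of complement, and ran from 2476 to 4048 FPKM (median 3344). Retn, the hormone resistin, ran from 202 to 493 FPKM (median 282) and Plin1, the main perilipin of the adipocyte droplet, from 87.4 to 262 FPKM (median 178). Cfd, Retn and Plin1 were listed at 0 in all 12 other columns.

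Adig, an adipocyte-enriched small protein, ran from 55.2 to 103 FPKM (median 80.1) and Rbp7, a retinol binding protein, from 48.5 to 122 FPKM (median 79.2), and both were listed at 0 in the other tissues. Cd36, the fatty acid translocase, ran from 295 to 539 FPKM (median 375) and exceeded liver by 5.63 ± 0.17 (SE, adjusted p = 2.4e-15). Aoc3, an amine oxidase of the adipocyte and vessel surface, reached 29.7 to 85.1 FPKM (median 52.9) with at most 0.293 FPKM elsewhere. Slc1a5, a glutamine transporter and not among the 8, ran from 85.7 to 179 FPKM (median 123) against at most 0.884 FPKM in hypothalamus and 0.558 in liver. The remaining 13 genes were the matrix genes Col1a1, Hspg2 and Col5a3, the lectin gene Lgals1, the ribosomal protein gene Rpl37a, the small nucleolar RNA host gene Snhg3, and 7 genes of histones and RNAs without poly-A tails described further on. Rpl37a, whose protein all cells use, was listed at 0 in the 12 other columns beside 69.1 to 114 FPKM (median 82.0) in adipose.

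**Figure D2:**
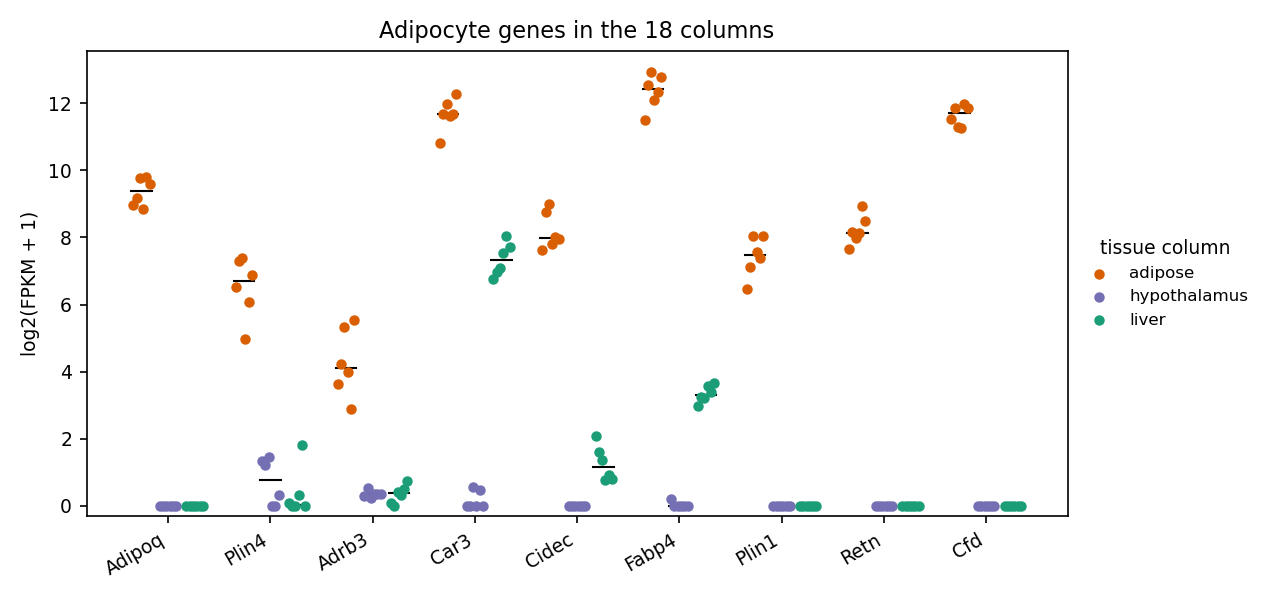
FPKM on a log2(FPKM + 1) axis for the 5 markers and for Fabp4, Plin1, Retn and Cfd; each point is one of the 18 columns, coloured by tissue, and black bars are medians of 6 columns. The adipose columns lie above all others for each gene; only Car3 and, far lower, Fabp4 and Cidec have clear liver values.

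The proximal promoters of these genes were read to show what sequence lies at their starts. Promoters of 300 bases (250 before and 50 after the start, RefSeq, GRCm38.p6) were found for 13 of the 25 genes under their symbol. The motifs searched, which capitals mark below, were sought on both strands and do not overlap one another here: TATAAA (the TATA box), AGGTCA (the half-site of nuclear receptors such as PPARG) and TTGCNNAA (a C/EBP core). The promoter of Adipoq holds none of them, that of Plin1 holds 2 of the C/EBP letters, and that of Adig holds 1 half-site.
Adipoq, chr16:23146286-23146585, plus strand: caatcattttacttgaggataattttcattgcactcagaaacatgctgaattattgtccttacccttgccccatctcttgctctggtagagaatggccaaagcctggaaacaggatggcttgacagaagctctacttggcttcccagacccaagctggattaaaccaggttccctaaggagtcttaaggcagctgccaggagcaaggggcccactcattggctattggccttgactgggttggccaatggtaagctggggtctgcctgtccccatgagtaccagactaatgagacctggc
Plin1, chr7:79732727-79733026, minus strand: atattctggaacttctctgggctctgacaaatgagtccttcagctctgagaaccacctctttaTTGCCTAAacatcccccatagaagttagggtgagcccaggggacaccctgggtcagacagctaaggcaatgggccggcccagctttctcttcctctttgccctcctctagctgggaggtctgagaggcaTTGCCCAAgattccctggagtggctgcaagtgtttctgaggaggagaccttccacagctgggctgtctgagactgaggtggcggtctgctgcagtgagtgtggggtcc
Adig, chr2:158502362-158502661, plus strand: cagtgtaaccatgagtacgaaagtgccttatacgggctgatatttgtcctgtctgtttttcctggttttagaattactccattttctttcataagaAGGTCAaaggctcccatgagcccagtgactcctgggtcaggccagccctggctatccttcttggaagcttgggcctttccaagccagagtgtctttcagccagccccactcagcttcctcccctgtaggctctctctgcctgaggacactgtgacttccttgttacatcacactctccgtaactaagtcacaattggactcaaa
The 13 genes have 14 promoters in the table, since Cidec has a pair. Of the 13 genes 1 held TATAAA, 2 held AGGTCA and 2 held TTGCNNAA. Of all 32851 promoters in the table, 13.6% held TATAAA, 16.3% AGGTCA and 10.8% TTGCNNAA. A match is only a match of letters within this window.

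Transcription factors and lipid handling genes of adipocytes were described from lists of known members. Counts for this and all later lists stand beside 7.59% of all tested genes called higher than in both tissues and 3.62% called lower. Of 18 genes of adipocyte identity, all were tested, 9 were higher than in both other tissues and none lower, with a median difference of 2.05 against hypothalamus and 2.14 against liver on the log2(FPKM + 1) scale, beside -0.62 and 0.20 over all genes. Medians of this kind include genes listed at 0 in another tissue, whose difference has no lower bound that the files can give. On hypothalamus and liver columns alone 15 of the 18 passed the filter, and 6 of these were higher. Pparg, the master regulator of fat cell formation, ran from 30.4 to 72.2 FPKM (median 44.8) against 1.51 to 4.79 FPKM (median 2.82) in liver. Lpl, the lipase that frees fatty acids from circulating lipoproteins, ran from 528 to 1445 FPKM (median 842) and exceeded liver by 4.73 ± 0.23 (SE, adjusted p = 2.2e-12). Not all adipogenic factors marked the tissue: Cebpb, an early C/EBP factor, was at 9.11 to 18.9 FPKM (median 10.6) in adipose and 30.1 to 100.03 FPKM (median 59.3) in liver, and was lower than in liver.

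Of 20 genes of the lipid droplet and lipolysis, 19 were tested and 10 were higher than in both tissues, with none lower and a median difference of 2.47 against hypothalamus and 1.47 against liver. Of the 19, 6 passed the filter only with adipose columns, which favours a call, and 4 of the other 13 were higher. Among the 10 were the droplet proteins Plin1, Plin4, Cidec and Fitm2, the lipases Lipe and Mgll, the lipase activator Abhd5, the receptor Adrb3, and Aqp7, the channel through which glycerol leaves the cell. Aqp7 ran from 18.9 to 69.0 FPKM (median 39.2) and was listed at 0 in the other tissues. Pnpla2, the first lipase of the chain, was at 192, 459, 341, 297, 210.4 and 0.0818 FPKM in adipose columns 03 to 42, and with its 1 value near 0 it was called against hypothalamus and not against liver. The perilipin Plin5 and the liver paralogue Cideb were lower in adipose than in liver, where Cideb ran from 95.3 to 131 FPKM (median 119) against at most 1.16 in adipose.

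For fatty acid and triglyceride synthesis, 15 of 20 genes were tested and 7 were higher than in both tissues, with none lower, or 6 of the 13 that passed without the adipose columns. Scd1, which desaturates stearate, ran from 579 to 2206 FPKM (median 1404) against 161 to 421 FPKM (median 174) in liver. Dgat1, which makes the final ester bond of triglyceride, ran from 48.0 to 102 FPKM (median 60.7) and exceeded liver by 3.07 ± 0.24 (SE, adjusted p = 1.8e-09). Thrsp, a lipogenic nuclear protein, ran from 55.9 to 178 FPKM (median 101). Elovl5, an elongase, was lower than liver, at 19.6 to 37.6 FPKM (median 30.7) against 148 to 194 FPKM (median 166).

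Of 15 adipokine genes 11 were tested and 3 were higher than in both tissues, namely Adipoq, Cfd and Retn. All 3 passed the filter only with adipose columns, and none of the 7 adipokine genes that passed without them was called. Rarres2 (chemerin) and Rbp4 (retinol binding protein 4) were higher than hypothalamus and lower than liver. Leptin stayed near the lower limit: Lep was listed at 0, 0.312, 0, 0, 1.67 and 2.96 FPKM in the adipose columns and did not enter the test. Of 15 thermogenic genes 7 were tested. Cox8b, a cytochrome oxidase subunit of brown fat and muscle, ran from 5.01 to 30.04 FPKM (median 11.5) and was called after passing the filter only with adipose columns, whereas the uncoupling protein Ucp1, Cidea and Elovl3 were listed at 0 in all 6 adipose columns. Ppargc1a, the coactivator of mitochondrial genes, ran from 1.08 to 2.83 FPKM (median 1.83) and did not pass the test against either tissue.

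Genes of connective tissue, vessels and their walls were higher in adipose than in both other tissues in nearly every case tested. Of 26 genes of collagen and matrix, 23 were tested and 21 were higher than in both tissues, none lower, with a median difference of 4.20 against hypothalamus and 3.82 against liver. Of the 23, 8 passed the filter only with adipose columns, and without the adipose columns 03, 10 and 41, described at the end, 20 were called. On the filter of the hypothalamus and liver columns alone, 15 matrix genes were tested and 13 were higher. Col3a1, a collagen of loose connective tissue and vessels, ran from 621 to 1042 FPKM (median 753) against 11.9 to 45.2 FPKM (median 23.7) in liver. Col1a1, the main chain of fibrillar collagen, ran from 211 to 535 FPKM (median 317) and exceeded hypothalamus by 6.54 ± 0.43 (SE, adjusted p = 8.6e-11). Sparc, a matrix glycoprotein, did not pass against hypothalamus, where it ran from 152 to 1008 FPKM (median 898) beside 598 to 871 FPKM (median 711) in adipose, and Fn1, fibronectin, was lower than liver.

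Of 18 endothelial genes 17 were tested and 15 were higher than in both tissues, with a median difference of 1.98 against hypothalamus and 2.73 against liver. Pecam1, an adhesion molecule between endothelial cells, ran from 20.8 to 98.9 FPKM (median 60.5) and Kdr, the VEGF receptor, from 11.9 to 49.1 FPKM (median 36.8). Of 16 genes of smooth muscle and pericytes 15 were tested and 12 were higher than in both, or 7 of the 10 that passed without the adipose columns. Acta2 and Myh11, contractile proteins of smooth muscle, ran from 25.2 to 158 FPKM (median 123) and 10.7 to 48.0 FPKM (median 30.4). Of 16 progenitor genes 14 were tested and 6 were higher than in both, among them Dpt and Cd34 (the matrix protein dermatopontin and a stromal surface protein). Dlk1, the preadipocyte factor, stayed at or under 0.826 FPKM in adipose and was higher in hypothalamus. Of 16 mesothelial genes 12 were tested and 5 were higher than in both, all of which passed only with adipose columns, and none of the other 7 was called. Krt19, a keratin, and Upk3b, a uroplakin of mesothelium, ran from 2.10 to 32.7 FPKM (median 9.66) and 3.14 to 22.9 FPKM (median 8.03).

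Of 20 genes of macrophages and microglia 16 were tested and 2 were higher than in both tissues, beside 7.59% of all tested genes, namely the lysozyme Lyz2 at 56.3 to 123 FPKM (median 70.3) and the haemoglobin scavenger receptor Cd163 at 2.61 to 7.75 FPKM (median 5.35). The Kupffer cell gene Clec4f was listed at 0 in adipose. None of 20 lymphocyte genes reached the test. The summed FPKM of the 13 blood gene names in the tables, mostly globins, was 1058 to 2995 in adipose, 275 to 599.9 in hypothalamus and 541 to 1318 in liver, and the ranges of adipose and liver overlapped. Of 7 tested, Hbb-bs and Pf4 were higher than in both, Pf4 passing only with adipose columns, and globin copies are near-identical.

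Hox genes, which record position along the body axis, were measured in adipose at levels the other tissues did not reach. The summed FPKM of 39 Hox genes was 46.6 to 118 in adipose, at most 0.146 in hypothalamus and at most 1.71 in liver. Hoxd8 had 8.06 to 28.8 FPKM (median 14.4) and Hoxc8 6.77 to 10.1 FPKM (median 7.69) in adipose, and both were listed at 0 elsewhere. The 9 Hox genes that entered the test all did so through the adipose columns, so their 9 calls say no more than these levels. Of 30 hormone receptor genes 26 were tested and 4 were higher than in both tissues, beside 7.59% of all tested genes. Esr1, the estrogen receptor through which bisphenol A is known to act, ran from 7.15 to 20.2 FPKM (median 10.3) against 0.260 to 1.69 FPKM (median 1.36) in hypothalamus and 1.19 to 3.19 FPKM (median 1.498) in liver. It exceeded hypothalamus by 2.46 ± 0.23 (SE, adjusted p = 1.3e-08) and liver by 2.07 ± 0.23 (SE, adjusted p = 2.4e-07). Rarg, a retinoic acid receptor, and Pparg were also among them.

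The remaining lists were those of possible neighbouring or responding cells. Of 20 imprinted growth genes 18 were tested and 2 were higher than in both tissues, Zim1 and Igf2r, beside 7.59% of all tested genes. Both passed the filter only with adipose columns, and Igf2r was listed at 0 in all 12 other columns beside 11.7 to 21.9 FPKM (median 15.6) in adipose. Igf2, the fetal growth factor, was higher than in liver and lower than in hypothalamus, at 2.68 to 6.85 FPKM (median 5.82) against 28.9 to 55.3 FPKM (median 48.2) in hypothalamus. Of 27 immediate early genes 21 were tested, 6 were higher than in both and Egr1 was lower. Klf4, a transcription factor of vessels and stroma, ran from 8.03 to 14.6 FPKM (median 13.0) in adipose and reached at most 2.16 FPKM elsewhere. Of 21 skeletal muscle genes 3 were tested, and the actin Acta1 and the tropomyosin Tpm2, which passed only with adipose columns, were higher than in both. Of 21 germ cell and Leydig cell genes 5 were tested and 1, the transcription factor Zbtb16, was higher than in both.

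**Figure D3:**
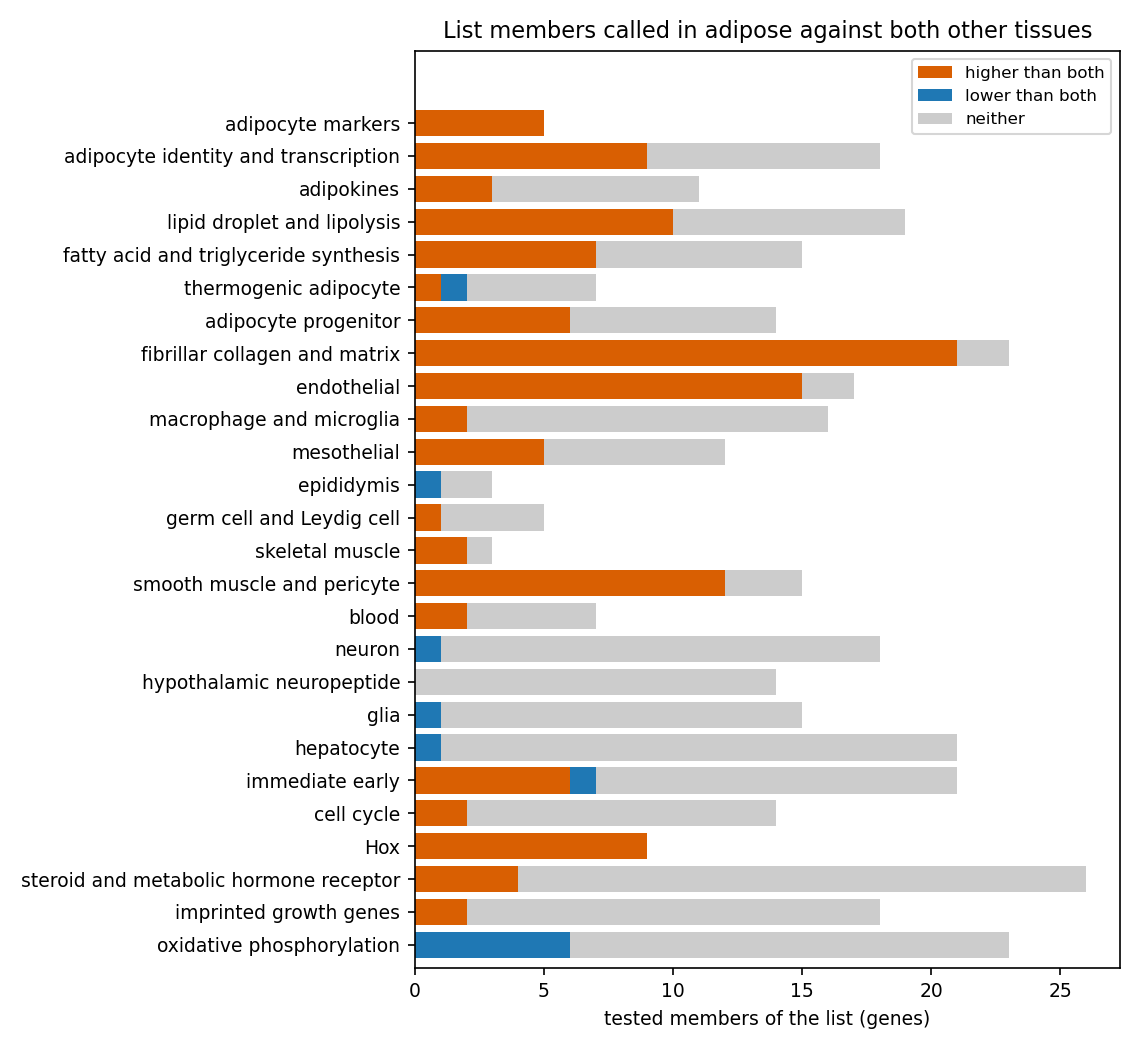
Members of each gene list that were tested, as horizontal bars in genes, split into those called higher in adipose than in both tissues, those called lower than in both, and the rest. Collagen and matrix (21 of 23), endothelial (15 of 17) and smooth muscle (12 of 15) have the largest shares called higher among the lists with 10 or more tested members.

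RNAs that carry no poly-A tail, or whose tail is unusual, were far higher in adipose than in the other tissues. The labels' protocols describe poly-A selection for all 18 samples, which retains RNAs with a poly-A tail. Rpph1, the RNA of ribonuclease P, and Rmrp, the RNA of ribonuclease MRP, are transcribed by RNA polymerase III and carry no such tail. Rpph1 (chr14:50807447-50807771, mm10) was at 12467, 8496, 9665, 8506, 17281 and 6322 FPKM in adipose columns 03, 10, 15, 25, 41 and 42. Its highest value was 8.78 in hypothalamus and 10.7 in liver. Rmrp (chr4:43492785-43493059) ran from 5990.2 to 7816 FPKM (median 6227) in adipose and reached at most 5.13 elsewhere. Together the pair made up 7.68% to 11.8% of the gene-level FPKM of the adipose columns. FPKM divides by length, and both models are short, so the share of reads is smaller than that.

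Replication-dependent histone genes form clusters and end in a stem-loop in place of a poly-A tail. The summed FPKM of the 64 histone cluster names was 1126 to 1719 in adipose (median 1168), 97.6 to 153 in hypothalamus and 88.9 to 167 in liver. Of these names 57 were tested, 54 were higher than in both tissues and none was lower, beside 7.59% higher among all tested genes. On hypothalamus and liver columns alone 11 passed the filter, and 8 of these were higher. These genes are near-identical copies, so the value of a single copy is uncertain. Hist1h4d, one of the H4 copies, ran from 109.99 to 191 FPKM (median 131) in adipose and reached at most 0.586 FPKM elsewhere.

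The stem-loop itself was searched in the last 120 bases of the annotated transcripts (GENCODE vM21) as an inverted repeat of 6 bases, from GG, around a loop of 4 bases that opens with TT. Among 21877 protein-coding genes 26 held it, and 22 of these were histone cluster genes. Below, the paired stem is in capitals and the loop in lower case.
Hist1h4h: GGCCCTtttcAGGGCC
Hist1h4f: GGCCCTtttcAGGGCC
Hist1h4b: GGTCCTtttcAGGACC
Hist1h2bb: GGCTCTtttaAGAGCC
Hist2h2ac: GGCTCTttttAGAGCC
Hist1h3b: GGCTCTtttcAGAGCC
They are shown as the element that takes the place of the tail. Among the 22 genes every H4 copy had the stem GGCCCT or GGTCCT, and every H2A, H2B and H3 copy had GGCTCT. Of the 22 genes 20 were in the tables and 19 were tested, and all 19 were higher in adipose than in both tissues. They are part of the 57 tested histone cluster names, of which 54 were higher, so the count says nothing of the element itself. The rest of the 64 histone cluster names in the tables were not matched by this search. Of these 2 passed the filter without the adipose columns, and the other 17 passed only with them, which favours a call. Hist1h4h ran from 58.7 to 78.5 FPKM (median 67.4) in adipose, 0.895 to 1.65 FPKM (median 1.18) in hypothalamus and 0.213 to 0.896 FPKM (median 0.659) in liver. Of the 20, 2 reached 5 FPKM in hypothalamus or liver, Hist1h2bf and Hist2h2aa2. Without adipose columns 03, 10 and 41, 17 of the 19 were higher.

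The replacement histone genes H3f3a and H3f3b, whose transcripts are polyadenylated, gave no such picture. They were chosen after their values were seen, and other replacement histones are not given here. H3f3a ran from 69.8 to 139 FPKM (median 88.1) in adipose and 65.6 to 78.4 FPKM (median 68.2) in hypothalamus, and H3f3b from 53.2 to 95.8 FPKM (median 82.1) and 82.2 to 96.1 FPKM (median 91.8). Neither differed by as much as 1 on the log2 scale from either tissue. The small Cajal body RNAs, which guide modification of spliceosomal RNAs, were also high in adipose. The 9 Scarna names summed to 333 to 436 FPKM in adipose, at most 5.24 in hypothalamus and at most 1.68 in liver. All 6 that were tested were higher than in both, beside 7.59% of all tested genes. The filter counted the adipose columns, where these RNAs are high, so the 6 calls add little to the levels. Several Scarna RNAs lie inside host genes, whose reads cannot be told apart from theirs without strand. Malat1, a nuclear RNA whose end is a triple helix, ran from 354 to 465 FPKM (median 426) in adipose, 37.8 to 58.3 FPKM (median 55.2) in hypothalamus and 10.5 to 29.4 FPKM (median 17.1) in liver. Of all tested genes, 13.1% were higher than in hypothalamus and 7.59% higher than in both tissues. Of 20 cell cycle genes 14 were tested, 9 were higher than in hypothalamus, and 2 were higher than in both tissues. Both of the latter passed only with adipose columns, and none of the 6 genes that passed without them was called. These 2 were Top2a, at 2.21 to 4.95 FPKM (median 3.18), and Mki67, at 0.0503 to 3.45 FPKM (median 2.58), and Mki67 overlapped the liver range, which reached 1.998 FPKM. Whether library preparation differed between tissues was not tested, and preparation and tissue cannot be told apart here.

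**Figure D4:**
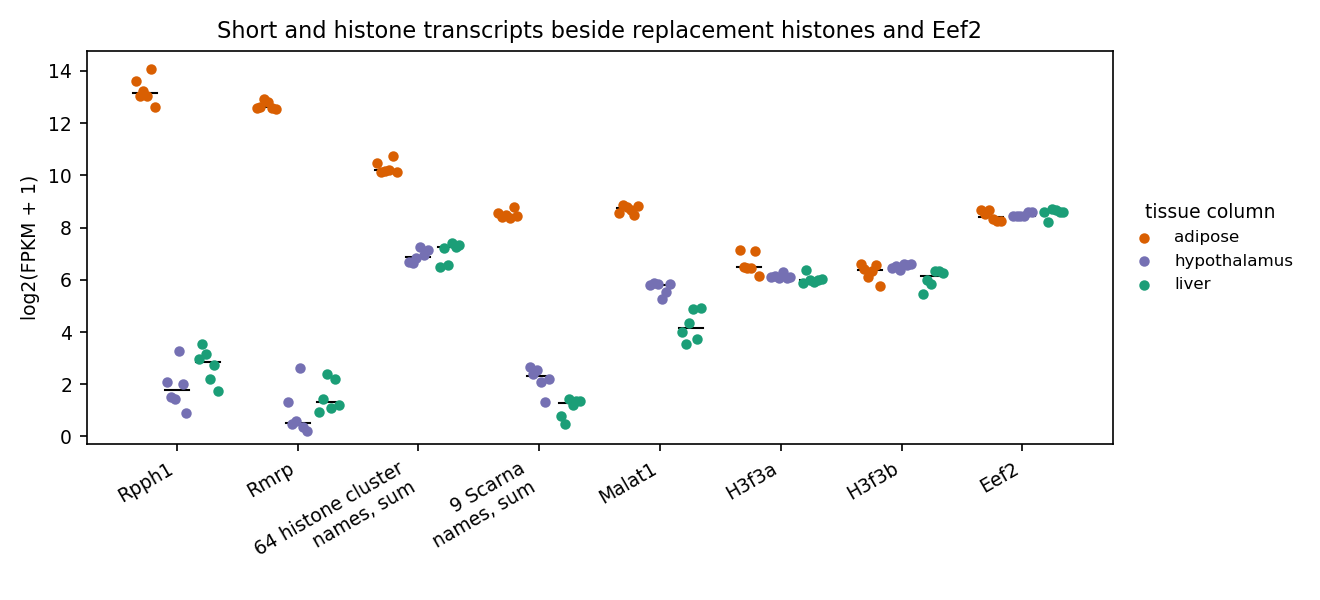
FPKM on a log2(FPKM + 1) axis for Rpph1, Rmrp, the summed histone cluster and Scarna names, Malat1, 2 replacement histones and the elongation factor Eef2; each point is a column, coloured by tissue, with medians of 6 columns as bars. The first 5 items are separated by tissue, while H3f3a, H3f3b and Eef2 lie at similar levels in all 3 tissues. H3f3a, H3f3b and Eef2 were picked after their values were seen, and not every widely used gene was level. Actb, for one, was higher in adipose than in liver by 1.68 on this scale.

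Several of the genes lowest in adipose relative to both other tissues were enzymes. Got1, the cytosolic aspartate aminotransferase, ran from 1.01 to 2.07 FPKM (median 1.72) in adipose, 112 to 138 FPKM (median 118) in hypothalamus and 94.5 to 277 FPKM (median 169) in liver. The difference was -5.56 ± 0.21 against hypothalamus and -6.03 ± 0.21 against liver (SE, limma adjusted p = 2.4e-14 and 1.9e-14). Abat, which breaks down GABA, ran from 1.44 to 6.43 FPKM (median 2.38) against 102 to 126 FPKM (median 123) and 56.7 to 88.5 FPKM (median 67.7) in the same order.

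Itih3, an inhibitor chain that binds hyaluronan, Etnppl, which degrades phosphoethanolamine, and Ddc, the decarboxylase of dopamine and serotonin synthesis, were listed at 0 in 5 or 6 of the adipose columns. Nrn1, a neuritin, stayed at or under 0.460 FPKM in adipose. Mt2, a metallothionein, spread from 1.59 to 30.5 FPKM (median 14.5) in adipose and from 207 to 941 FPKM (median 433) in liver. Lars2, the mitochondrial leucyl-tRNA synthetase, was at 10.3, 11.0, 10.5, 16.7, 0 and 13.7 FPKM in the adipose columns and at 242 or more elsewhere. Rab7, a late endosome GTPase of all cells, was at 0.970, 0.394, 0.209, 28.0, 0.115 and 0.539 FPKM in adipose, so 5 columns were under 1 and 1 was not, beside 51.4 to 55.8 FPKM in liver.

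Nuclear genes of oxidative phosphorylation were lower in part, and the count depended on the scale. Of 24 genes 23 were tested and 6 were lower than in both tissues, beside 3.62% of all tested genes. Their medians were -0.81 against hypothalamus and -0.92 against liver, beside -0.62 and 0.20 for all genes. Cox5a, a cytochrome oxidase subunit, ran from 36.0 to 43.5 FPKM (median 41.6) against 125 to 152 FPKM (median 133) and 151 to 204 FPKM (median 170.3). With upper-quartile scaling none of the 23 was lower than in both, the median against hypothalamus turned to 0.05, and that against liver was -1.001. With sum scaling 1 was lower than in both. Genes of the other tissues were low in adipose. All 18 neuronal genes were lower than in hypothalamus, with a median of -6.13, as were 14 of 15 glial and all 14 hypothalamic neuropeptide genes that were tested. All 21 tested hepatocyte genes were lower than in liver, with a median of -9.26. Of all tested genes, 38.3% were lower than in hypothalamus and 12.8% lower than in liver. Cyp2e1, a cytochrome P450 best known from liver, nevertheless reached 603 to 1535 FPKM (median 795) in adipose against 2647 to 4481 FPKM (median 3835) in liver, and Hp, haptoglobin, reached 153 to 247 FPKM (median 191).

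The adipose columns differed among themselves more than those of the other tissues. The median SD of log2(FPKM + 1) over the tested genes was 0.274 for the adipose columns, against 0.143 for hypothalamus and 0.192 for liver. Over the 3 adipose columns 15, 25 and 42 alone it was 0.194. These columns were picked after their values were seen, as those lowest in the epididymal genes given below. The choice itself favours a lower spread, and this SD rests on fewer columns than the others. Whether epididymal RNA accounts for the wider spread of adipose was not tested. The 15 genes with the largest SD among those of at least 5 FPKM on average in adipose were all high in columns 03 and 41. They were secreted or surface products of the epididymal epithelium or members of its gene families, namely 7 beta-defensins, the lipocalins Lcn5 and Lcn8, the protease inhibitors Spink8, Spink11 and Cst11, the sperm-coating Crisp1, the peroxidase Gpx5 and the metalloprotease relative Adam7. Gpx5 was at 1039, 0, 0.381, 0, 1252 and 0 FPKM in columns 03, 10, 15, 25, 41 and 42. Defb20 was at 1134, 0.423, 0.0376, 0.117, 523 and 0, and Lcn8 at 599, 0, 0, 0, 262 and 0. These 3 genes were high in columns 03 and 41 and at or near 0 in the other 4.

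Column 10 carried some members of the group and not others. Crisp1 was at 256, 475, 0, 0, 282 and 0 FPKM in the same order, and Spink8 at 788, 367, 0.0784, 0.206, 353 and 0. Adam7 was at 691, 57.3, 0, 0, 362 and 0. Crisp1 was thus highest in column 10, where Gpx5, Lcn8 and Cst11 were listed at 0. The summed FPKM of the 22 listed epididymal genes was 7328, 1055, 31.2, 64.5, 4903 and 14.9 in the 6 columns, which is 0.00927% to 3.60% of the gene-level FPKM. Most of the sum in the 3 low columns came from Clu and Lcn2, which other tissues express. Of the 22 genes 3 passed the filter, and Clu was called lower than both tissues although its values in columns 03 and 41 lay above the highest of the other tissues, 372 FPKM.

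Other genes followed the same columns. Npy, a neuropeptide, was at 21.4, 69.5, 0, 0, 23.2 and 0 FPKM and was highest where Crisp1 was highest. Clu, clusterin, was at 1102, 24.8, 21.1, 17.1, 597 and 11.7 and Actg2, a visceral smooth muscle actin, at 75.1, 7.26, 12.1, 12.3, 39.8 and 1.49. Hoxb7 was at 16.2, 2.99, 1.69, 2.92, 8.85 and 1.498. All of these except Npy had their 2 highest values in columns 03 and 41. Sums over some whole lists did too. The mesothelial genes summed to 292, 124, 77.9, 126, 204 and 39.9 FPKM. The Hox genes summed to 118, 58.8, 50.1, 55.4, 77.7 and 46.6, and the macrophage and microglia genes to 277, 156, 195, 144, 245 and 128. Collagen and matrix genes did not, at 2764, 3145, 4327, 4078, 3003 and 2794.

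Endothelial genes went the opposite way, with a summed FPKM of 344, 699.6, 969.7, 724, 488 and 862, and columns 03 and 41 were the lowest. The 18 adipocyte identity genes summed to 3903, 7517, 9986, 5712, 6674 and 8845, lowest in column 03, while column 41 lay within the range of the rest. Pecam1 was at 25.1, 66.1, 98.9, 56.8, 20.8 and 64.2 and Adipoq, given above, had its highest value in column 41. Which treatment these columns belong to is not known, and the part of epididymal RNA in the adipose results was not tested. Without columns 03, 10 and 41 the counts against both tissues were 990 genes higher and 578 lower, beside 968 and 461. Of the histone cluster names 50 of 57 were then higher than in both, and of the endothelial genes 16 of 17. All 5 markers were still called, but 4 of them passed the filter only with adipose columns, so their calls add nothing to their levels.

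**Figure D5:**
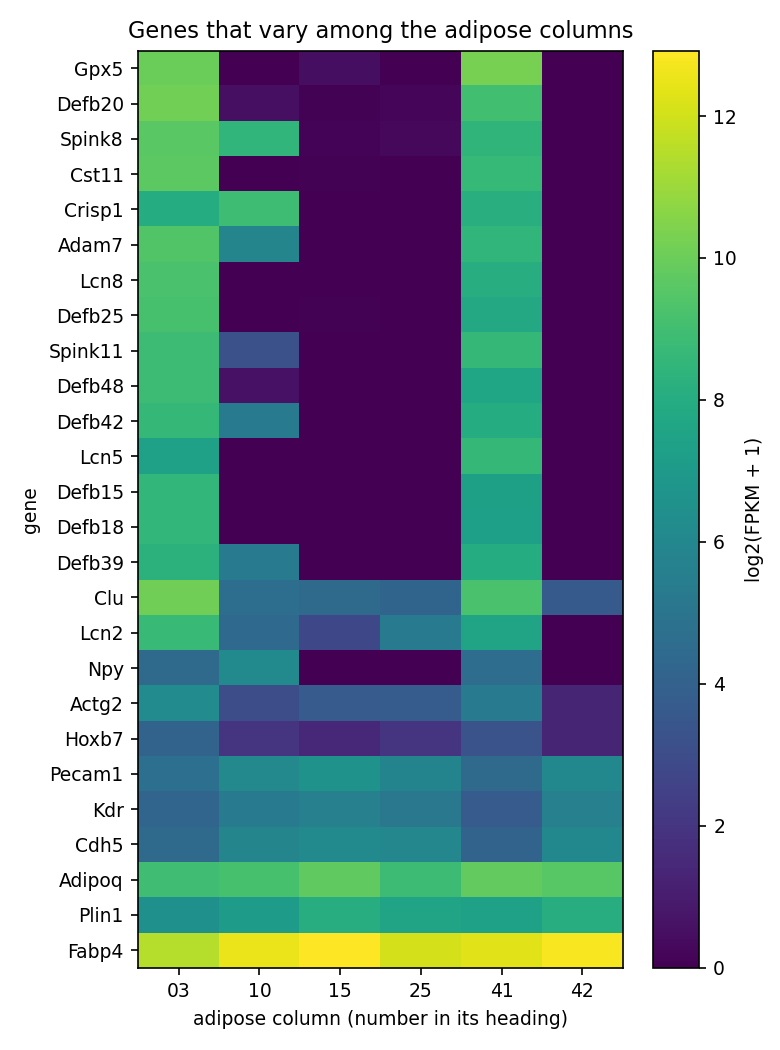
Heat map of log2(FPKM + 1) in the 6 adipose columns (horizontal, by the number in the heading) for the 15 genes of largest spread, then Clu, Lcn2, Npy, Actg2, Hoxb7, 3 endothelial and 3 adipocyte genes (vertical). Columns 03 and 41 are bright for all 15 genes and column 10 for some of them, while Pecam1, Kdr and Cdh5 are dimmest in columns 03 and 41.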

How the data were processed

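Poly-A-selected RNA of gonadal adipose tissue, hypothalamus and liver was sequenced on Illumina instruments from TruSeq libraries, per the labels' protocols. The authors deposited FPKM values per transcript model and column in 1 table for each tissue. The submitters' processing notes name HISAT 0.1.6, StringTie 1.0.4 and the mm10 build. FPKM was summed here per gene name, non-numeric cells were treated as missing, and 25 gene names that a spreadsheet had turned into dates were left out. Read counts are not in these tables, so no counting interval is given, and the SE values reflect only the spread between columns.

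Genes of at least 1 FPKM in 6 of 18 columns were tested with limma 3.58.1 (trend, R 4.3.3, two-sided, Benjamini-Hochberg over all genes tested) on log2(FPKM + 1) with 3 tissue means. On simulated data 44 of 50 genes changed by 1.5 on the log2 scale were called against both tissues, and 0 of 11351 unchanged genes. The simulated noise was normal and independent, with the same SD in each tissue. It therefore does not cover failed estimates at 0, separate assemblies or the wider spread of adipose, and gives no error rate for these data. Named were the 5 markers, the 25 genes highest and the 10 lowest by the smaller of the 2 differences with a mean of at least 10 FPKM, the 15 of largest SD among adipose columns with a mean of at least 5 FPKM, and up to 6 members a list; a few of these are not reported here. Other names (the further list members, histones, Malat1, Actb, Eef1a1, Eef2, Gapdh, H3f3a, H3f3b, Npy, Igf2 and Igf2r among them) were chosen after their values were seen. The members and lists were chosen with earlier results of these data known. Alternatives covered the pseudocount, filter, scaling, assembly, source table and each column left out.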

Additional observations from a re-analysis of the deposited data

Results flagged for a closer look

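In 8 of 79 sets of 6 adipose values 1 column stood apart by Dixon's test at the 95% level, and chance alone gives about 1 in 20 for normally distributed values. A set with all but 1 value at 0, as for Itih3 and Ddc, stands apart by construction, so no excess is read from the count. Lgals1, a galactose-binding lectin, reached 455.6 FPKM in column 41, where the other 5 columns were at 188 to 273. Rab7 stood at 27.95 FPKM in column 25 and Abat at 6.43 in the highest of its columns. Itih3 was listed at 0.230 FPKM in column 15 and Ddc at 1.28 in column 25, with both at 0 in the others. Summed over their lists, skeletal muscle genes reached 57.7 FPKM and oxidative phosphorylation genes 2443, both in column 41, as for Lgals1. The hypothalamic neuropeptides summed to 69.5 in column 10, nearly all of it Npy. The causes were not tested.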

How the results depend on the processing

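The column headings carry no replicate number that a label gives. The heading numbers recur across tissues, but none of the 14 pairs of columns with the same number had deviations from the tissue means that correlated at over 0.1, and their r reached at most 0.0443, so they give no sign of pairing. With the heading number as a replicate block, chosen after seeing the data, the counts were 1606 higher and 4950 lower than in hypothalamus, 2828 higher and 1652 lower than in liver, and 949 higher and 482 lower than in both. A pseudocount of 0.1 gave 730 genes lower than in both tissues. Upper-quartile scaling gave 2825 genes higher and 2939 lower than in hypothalamus, and 298 lower than in both. Sum scaling, under which 14559 genes were tested, gave 2937 higher than in hypothalamus, 6540 higher than in liver and 1999 higher than in both. Requiring the same number of models in all 3 tables left 3880 genes to test, and the counts fell with it to 539 higher and 1441 lower than in hypothalamus, 784 higher and 548 lower than in liver, 304 higher and 152 lower than in both, and 45 list members called. A filter on the 12 hypothalamus and liver columns, chosen after seeing the data, gave 1109 higher than in hypothalamus, 467 higher than in both and 80 list members called. Leaving out 1 adipose column at a time gave 942 to 987 genes higher and 443 to 492 lower than in both. No named gene changed direction in any of these. Among others, the calls of Birc5, Cd163, Clu, Cox5a, Cyc1, Hbb-b1, Hbb-bs, Inha, Mki67, Npy, Plin5, Slc27a2, Synpo2 and Zbtb16 were lost under at least 1 alternative, and the cause was not tested. Depth is unknown, so values listed at 0 give no limit.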
